A study of Homo sapiens with 12 samples.

Results

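The genes described here are the replication-dependent histone genes of SKM1 cells, a human myeloid leukaemia cell line. They were chosen by symbol: every gene whose annotated symbol was H2AC, H2BC, H3C or H4C followed by a number, or H1-1 to H1-6. Of 28125 genes with a symbol, 57 met this rule, and all 57 were tested. They comprised 6 linker histone H1 genes, 14 H2A genes, 16 H2B genes, 11 H3 genes and 10 H4 genes. RefSeq lists 55 of them as protein coding and H2AC2P and H2BC20P as transcribed pseudogenes, and it holds 84 symbols of this form in all, 70 of them protein coding. RNA from 12 samples was measured on expression microarrays after 18 h in culture, with 3 arrays in each of 4 groups. The NT cells were untreated. The APR cells received APR-246, a compound developed to restore the activity of mutant p53. The AZA cells received 5-azacytidine, a nucleoside analogue that enters RNA and DNA and depletes DNA methyltransferases. The APR-AZA cells received both. Each drug was given at its IC50, and the labels state no concentration for either. All 4 groups were the same cell line, so the results describe 1 line in culture.

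Replication-dependent histone genes supply the histones that package newly copied DNA, and their mRNAs rise at the start of S phase and are degraded when DNA synthesis stops. Most of their mRNAs carry no poly(A) tail and end in a stem-loop that the stem-loop binding protein SLBP recognises. The genes lie in clusters, and many H2A and H2B genes stand head to head and share the DNA between their starts. H2A, H2B, H3 and H4 form the core of the nucleosome, while H1 binds the linker DNA between nucleosomes. The coactivator NPAT, which is activated by cyclin E with CDK2, drives their transcription in S phase. OCT1 binds an octamer element in H2B promoters, and NF-Y binds CCAAT boxes.

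Promoter sequences from RefSeq (build GRCh38.p14) were matched by symbol to 50 of the 57 genes. H2AC12, H2BC20P, H3C11, H3C12, H4C1, H4C3 and H2AC2P had none. The 200 bases before the start are shown for 5 genes on chromosome 6 on which the results below turn: the H2B gene with the largest increase under AZA, the histone gene that fell, the H3 genes H3C1 and H3C3, and H4C2. Capitals mark TATAAA, the octamer ATTTGCAT and the box CCAAT, which appears as its reverse complement where it lies on the other strand. The H2BC8 window is chr6:26216689-26216888 on the minus strand, and that of H2BC14 is chr6:27814822-27815021 on the plus strand. H3C1 is shown at chr6:26020251-26020450 and H3C3 at chr6:26045184-26045383, both on the plus strand. The H4C2 window is chr6:26027284-26027483 on the minus strand.
H2BC8: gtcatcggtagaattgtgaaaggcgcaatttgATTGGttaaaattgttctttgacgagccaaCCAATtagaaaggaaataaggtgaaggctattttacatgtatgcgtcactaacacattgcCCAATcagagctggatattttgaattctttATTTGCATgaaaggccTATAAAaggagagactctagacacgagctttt
H2BC14: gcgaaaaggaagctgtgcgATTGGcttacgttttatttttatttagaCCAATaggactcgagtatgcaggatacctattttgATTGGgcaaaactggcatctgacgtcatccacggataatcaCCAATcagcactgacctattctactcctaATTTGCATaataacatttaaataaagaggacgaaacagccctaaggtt
H3C1: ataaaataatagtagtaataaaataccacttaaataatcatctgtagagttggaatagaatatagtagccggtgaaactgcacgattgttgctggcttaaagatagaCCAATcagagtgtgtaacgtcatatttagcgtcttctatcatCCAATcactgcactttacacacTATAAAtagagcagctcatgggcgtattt
H3C3: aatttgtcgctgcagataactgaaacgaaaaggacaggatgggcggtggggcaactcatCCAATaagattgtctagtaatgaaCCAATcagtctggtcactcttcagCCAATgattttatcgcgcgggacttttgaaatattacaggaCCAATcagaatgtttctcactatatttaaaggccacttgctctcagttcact
H4C2: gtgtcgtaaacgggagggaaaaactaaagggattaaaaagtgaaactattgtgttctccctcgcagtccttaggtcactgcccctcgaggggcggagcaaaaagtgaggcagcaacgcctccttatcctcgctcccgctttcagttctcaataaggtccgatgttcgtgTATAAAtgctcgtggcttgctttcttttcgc

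The H2BC8 and H2BC14 promoters both carried the octamer, starting 48 bases before the start of the gene, and both carried CCAAT boxes. H2BC8 also held TATAAA 32 bases before its start, while the bases shown for H2BC14 hold none. H3C3 carried 4 CCAAT boxes and no octamer, and H4C2 carried TATAAA and neither of the other motifs. The letters of CCAAT and of TATAAA and the octamer were searched on both strands in a window from 250 bases before to 50 after each start, and no match of one motif overlapped a match of another in the 50 histone promoters. CCAAT was in 44 of 50 histone promoters (88%) and in 35.7% of 27305 promoters of all genes. TATAAA was in 35 of them (70%), against 12% of all promoters. ATTTGCAT was in 21 (42%), against 1.8%, and these were 9 of 12 H2A, 11 of 15 H2B and 1 of 9 H3 promoters, with none among 6 H1 and 8 H4 promoters. Windows of head-to-head H2A and H2B genes overlap, and both strands were searched. The same site can therefore count for both partners, so the H2A and H2B counts are not all separate sites. The H3 promoter with the octamer is that of H3C4, whose first listed window is the same as that of H2AC7, so the 50 genes have 49 distinct windows. The second listed window of H3C4 holds no octamer. CCAAT was in every matched H1, H2A, H2B and H3 promoter and in 2 of 8 H4 promoters. A match is a description of letters and not a binding site.

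Signals are log2 values as deposited, and a change is a difference between group means on that scale. Array medians lay between 4.69 and 4.78, and arrays of one group correlated at 0.994 or above across genes. The brightness of a gene on an array depends on its probes, so signals of different histone genes are not ranked as amounts of mRNA. Histone genes of one type are near-identical and may share probes. No pair among the 57 genes held an equal value on any array (0 of 1596 pairs), but cross-hybridisation between copies cannot be read from the values. Calls rest on limma's moderated test with an adjusted p below 0.05 over all 28125 genes. The labels do not name separate cultures behind the 3 arrays of a group, so each p-value reflects the scatter of these arrays, which may be technical. With bulk RNA, more S-phase cells and more histone mRNA per cell cannot be told apart, nor can fewer cells and less mRNA. Of 16 myeloid genes, 10 lay above the upper quartile of all genes in untreated cells, with LYZ (lysozyme) at 12.99 ± 0.09 (SD, n = 3). Below the median of all genes were 2 of them, CD34 at 4.21 ± 0.08 and CTSG at 4.56 ± 0.06. Among 17 markers of other cell types the NT means ran from 2.88 to 9.67, and the highest was the epithelial gene EPCAM, the one marker above that quartile.

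AZA was accompanied by higher signal of 23 histone genes and lower signal of 1, with 33 not called. Of all genes tested, 9.79% were called higher and 11.1% lower, against 40.4% and 1.75% of the histone genes. The median histone change was 0.21 on the log2 scale and that of all genes 0.00. Changes ran from a fall of H2BC14 (-0.70) to a rise of H2BC8 (2.25). Of the 57 histone genes, 8 were called and rose at least 2-fold, as did 502 of all 28125 genes. By type, 4 of 6 H1 genes rose, 4 of 14 H2A, 6 of 16 H2B, 6 of 11 H3 and 3 of 10 H4, while 1 H2B gene fell. The median change was 0.30 for H1, 0.17 for H2A, 0.27 for H2B, 0.45 for H3 and 0.04 for H4. Differences between types were not tested. The median signal of the 57 genes was 6.70 to 6.87 on the NT arrays and 7.31 to 7.55 on the AZA arrays, so these medians did not overlap. For all genes the medians were 4.71 to 4.76 and 4.73 to 4.79. Different histone genes sit at the median on NT and AZA arrays, so this shift is not the typical change of a gene, whose median was 0.21. Of the 24 calls, 16 held when any 1 of the 6 arrays was left out. H1-1, H1-2, H2AC6, H2AC8, H2BC5, H3C7, H3C10 and H3C13 lost theirs in at least 1 of these fits. Leaving out AZA replicate 1 cost 2 of the 24 calls, NT replicate 1 cost 5, NT replicate 3 or AZA replicate 3 cost 6, and NT replicate 2 or AZA replicate 2 cost 7. Without NT replicate 1 or AZA replicate 2, 2 genes were called lower.

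**Figure D1:**
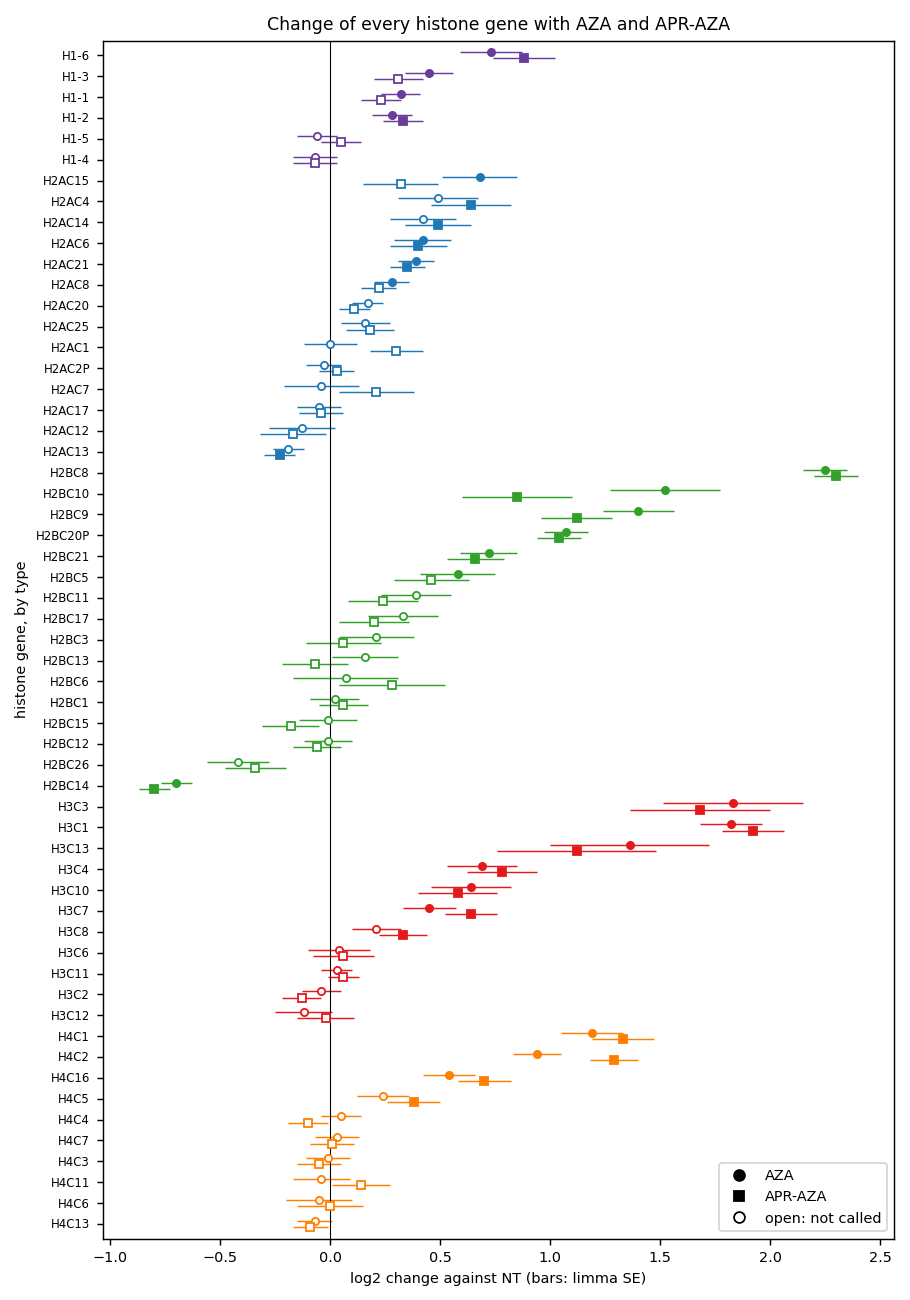
The log2 change under AZA and under APR-AZA against untreated cells for each of the 57 histone genes, arranged by histone type, with circles for AZA, squares for APR-AZA, bars of 1 standard error from limma and filled symbols for called genes. H2BC8 stands highest at 2.25 with AZA and H2BC14 lowest at -0.70 with AZA, and most H4 genes lie near 0.

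Among the H2B genes, the largest change of any histone gene was that of H2BC8, which encodes a core histone H2B. Its signal was 4.91, 4.97 and 5.09 on the NT arrays, 5.16, 5.41 and 5.07 on the APR arrays, 7.18, 7.37 and 7.17 on the AZA arrays and 7.21, 7.28 and 7.38 on the APR-AZA arrays. All 6 arrays with 5-azacytidine were above all 6 without it. The AZA change was 2.25 ± 0.10 (SE), or 4.76-fold, with an adjusted p of 6.69e-09. H2BC9 read 5.86, 6.34 and 6.09 in NT cells and 7.29, 7.84 and 7.36 with AZA, and H2BC10 read 3.89, 4.21 and 4.35 against 5.24, 5.97 and 5.79. Neither gene's groups overlapped. They rose by 1.40 ± 0.16 (adjusted p 2.16e-05) and by 1.52 ± 0.25 (adjusted p 0.000594). The pseudogene H2BC20P rose by 1.07 ± 0.10 (adjusted p 4.17e-06), while H2BC21 and H2BC5 rose by 0.72 and 0.58. The dimmest H2B gene, H2BC6, had a mean of 3.0 ± 0.33 (SD) in NT cells and 3.07 ± 0.25 with AZA.

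H2BC14, also an H2B gene, had the brightest mean signal of the H2B genes and was the histone gene that fell. It read 12.68, 12.67 and 12.73 on the NT arrays, 12.59, 12.52 and 12.48 on the APR arrays, 11.99, 12.03 and 11.98 on the AZA arrays and 12, 11.88 and 11.80 on the APR-AZA arrays. Every array with 5-azacytidine lay below every array without it, and the APR arrays lay below the NT arrays. The AZA change of -0.70 ± 0.07 was a 1.62-fold lower signal (adjusted p 1.53e-05). The call of H2BC14 held in each fit that left out an array. H2BC26 was lower by a change of -0.42 ± 0.14 that missed the threshold (adjusted p 0.054).

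**Figure D2:**
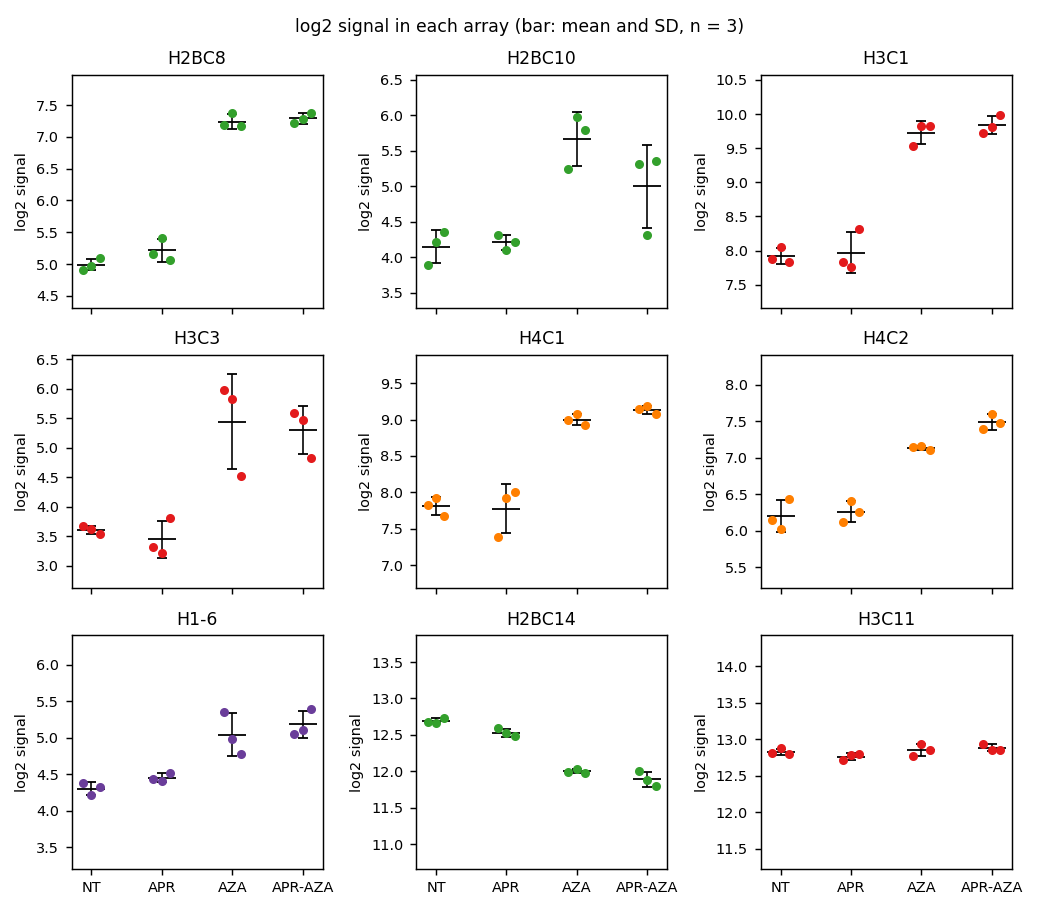
The log2 signal of named histone genes on each of the 12 arrays, grouped as NT, APR, AZA and APR-AZA, with points for arrays and bars for the mean ± SD (n = 3 per group). H2BC8 and H3C1 sit higher on all 6 arrays with 5-azacytidine, H2BC14 sits lower on them, and the H3C3 values of the AZA arrays spread from 4.52 to 5.97.

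The H3 genes had the highest median change of the 5 types. H3C1, which encodes H3.1, read 7.87, 8.05 and 7.83 in NT cells, 7.84, 7.76 and 8.31 with APR, 9.54, 9.83 and 9.82 with AZA and 9.72, 9.81 and 9.98 with both drugs. The lowest array with 5-azacytidine was above the highest without it. Its AZA change was 1.82 ± 0.14, or 3.52-fold (adjusted p 8.44e-07). H3C3, also an H3.1 gene and the dimmest H3 gene, read 3.67, 3.63 and 3.54 in NT cells and 5.97, 5.83 and 4.52 with AZA. The groups did not overlap, although 1 AZA array stood well below the other two. H3C3 rose by 1.83 ± 0.32 (adjusted p 0.00085). H3C13, which encodes H3.2, rose by 1.36 ± 0.36 (adjusted p 0.0152), from 3.75, 3.28 and 4.28 to 5.20, 4.45 and 5.74. Its arrays spread widely, and its call was lost without NT replicate 2 or AZA replicate 3. H3C4, H3C10 and H3C7 rose by 0.69, 0.64 and 0.45. The brightest H3 gene, H3C11, read 12.81, 12.88 and 12.80 in NT cells and 12.77, 12.94 and 12.85 with AZA. These groups overlapped, and its change was 0.03, with a 95% interval from -0.13 to 0.18.

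Of the H4 genes, 3 rose and the other 7 had changes close to 0 or missed the test. H4C1 read 7.83, 7.92 and 7.68 in NT cells and 9, 9.07 and 8.92 with AZA, and H4C2 read 6.15, 6.02 and 6.44 against 7.15, 7.16 and 7.11. In both genes the AZA arrays were all above the NT arrays. H4C1 rose by 1.19 ± 0.14, or 2.28-fold (adjusted p 2.69e-05), and H4C2 by 0.94 ± 0.11, or 1.91-fold (adjusted p 3.31e-05). H4C16, which lies on chromosome 12, read 8.55, 8.17 and 8.19 in NT cells and 8.59, 8.92 and 9.02 with AZA, a rise of 0.54 ± 0.12 (adjusted p 0.0064). The lowest AZA array was just above the highest NT array. The brightest H4 gene, H4C3, had a change of -0.01, with an interval from -0.22 to 0.21. The dimmest, H4C11, had NT and AZA means of 2.78 ± 0.14 and 2.74 ± 0.16 (SD).

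Of the H2A genes, 4 of 14 rose, none as much as 2-fold. H2AC15 read 6.59, 6.78 and 7.03 in NT cells and 7.87, 7.32 and 7.25 with AZA, which did not overlap, and it rose by 0.68 ± 0.17 (adjusted p 0.00909). H2AC6 read 11.14, 11 and 10.88 against 11.26, 11.50 and 11.51 and rose by 0.42 ± 0.13 (adjusted p 0.0297). Its call was lost without NT replicate 2, NT replicate 3, AZA replicate 2 or AZA replicate 3, with an adjusted p between 0.0761 and 0.111. H2AC21 and H2AC8 rose by 0.39 and 0.28. The brightest H2A gene, H2AC20, read 12.48, 12.48 and 12.54 in NT cells and 12.62, 12.70 and 12.69 with AZA. All 3 AZA arrays were higher, and the change of 0.17 ± 0.07 missed the threshold (adjusted p 0.0968). It passed with a variance trend and robust fitting (0.00482) and missed in every other alternative setting (0.069 to 0.23). The dimmest, H2AC25, had means of 3.54 ± 0.18 and 3.70 ± 0.04 (SD), with a change of 0.16 ± 0.11.

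Linker histone H1 genes rose in 4 of 6 cases. H1-6, known as a testis form of H1, read 4.38, 4.21 and 4.32 in NT cells, 5.36, 4.98 and 4.78 with AZA and 5.05, 5.11 and 5.40 with both drugs. The groups with 5-azacytidine lay above NT throughout, and the AZA change was 0.73 ± 0.14 (adjusted p 0.00129). H1-3, the dimmest H1 gene, read 3.72, 3.74 and 3.50 against 3.90, 4.37 and 4.05 with AZA. It rose by 0.45 ± 0.11 (adjusted p 0.01), from arrays that did not overlap. H1-1 and H1-2 rose by 0.32 and 0.28, and both calls were lost in some fits without 1 array. The brightest, H1-4, read 12.47, 12.37 and 12.20 in NT cells and 12.16, 12.30 and 12.38 with AZA. These arrays overlapped, and the change was -0.07 ± 0.10.

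Brightness was taken as each gene's mean over the 3 NT arrays and split at the quartiles of all genes (3.69, 4.73 and 7.19). In the dimmest of these 4 bands, 2 of 9 histone genes rose with AZA (H1-3 and H3C3), in the next 4 of 8, in the third 7 of 13 and in the brightest 10 of 27. The shares of all genes called higher in these bands were 1.37%, 3.54%, 14.9% and 19.3%. Median histone changes in the same order were 0.03, 0.35, 0.58 and 0.21. The NT arrays also enter the AZA change, and these bands were chosen after the data were seen. Bands from the mean over all 12 arrays, in which a rise itself lifts a gene to a brighter band, gave 0 of 8 histone genes in the dimmest. The 10 histone genes with a mean over all arrays above 11 had changes between -0.70 and 0.42, with H2AC6 and H2AC21 called higher and H2BC14 lower. The part of signal saturation in the values of the brightest genes was not tested.

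Head-to-head H2A and H2B genes did not change alike in every pair. With starts at most 300 bases apart in RefSeq, 8 such pairs were among the measured genes that had a promoter sequence. Genes without one, such as H2AC12, could not be paired. H2BC8 changed by 2.25 and its partner H2AC8 by 0.28. H2AC8 read 8.87, 8.84 and 8.96 in NT cells and 9.04, 9.25 and 9.20 with AZA. The H2B signal minus the H2A signal of this pair went from -3.90 ± 0.05 to -1.93 ± 0.09 (SD, n = 3). H2BC14 changed by -0.70 and its partner H2AC14 by 0.42 ± 0.15 (adjusted p 0.0775), and their difference went from 5.07 ± 0.13 to 3.95 ± 0.31. H2AC14 read 7.46, 7.70 and 7.72 in NT cells and 7.73, 8.08 and 8.34 with AZA, so that its AZA arrays were above its NT arrays. The remaining H2B and H2A changes were 0.72 and 0.17 for H2BC21 with H2AC20, 0.33 and -0.05 for H2BC17 with H2AC17, and 0.16 and -0.19 for H2BC13 with H2AC13. They were 0.02 and 0.00 for the testis genes H2BC1 and H2AC1, -0.42 and 0.16 for H2BC26 with H2AC25, and -0.01 and 0.68 for H2BC15 with H2AC15. An exact two-sided permutation test of the difference within a pair gave 0.1 in 6 pairs, 0.2 for H2BC15 and 0.9 for H2BC1. With 3 arrays against 3 the smallest p is 0.1, so this test cannot pass 0.05. Adjusted over the 8 pairs the p-values were 0.133, 0.229 and 0.9.

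**Figure D3:**
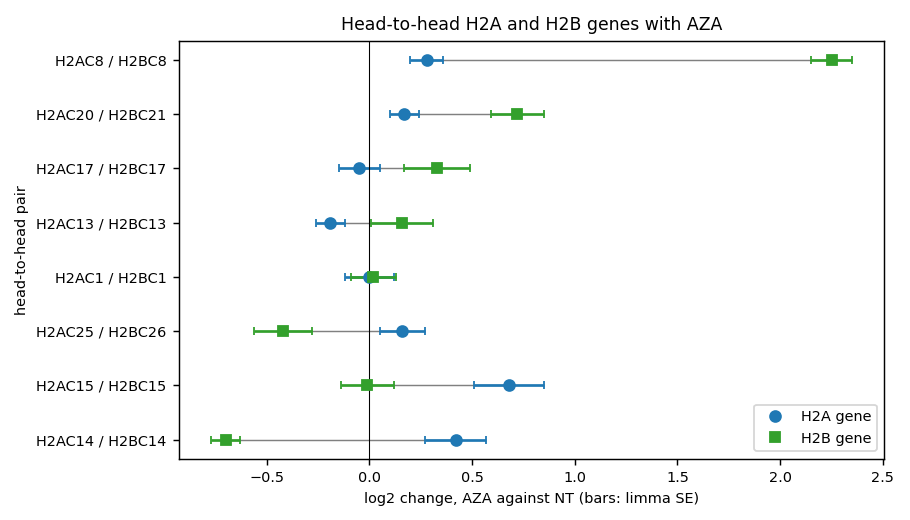
The log2 change under AZA against untreated cells for the 2 genes of each of 8 head-to-head H2A and H2B pairs, with bars of 1 standard error from limma. The H2B gene is far above its partner in the pair of H2BC8 (2.25 against 0.28) and below it in the pair of H2BC14 (-0.70 against 0.42).

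The calls were also counted along the chromosomes. Neighbouring histone genes were joined into 1 group unless more than 500 kb of the RefSeq map lay between them, a split made after the changes were known and not tested. The largest group on chromosome 6, from H2AC1 to H2BC10, held 32 genes, of which 16 rose and 0 fell, with a median change of 0.28. Of 14 genes in the group from H2BC13 to H2BC17 on the same chromosome, 2 rose and 1 fell, with a median of -0.02, and in between, H2BC11, H2BC12 and H2AC12 gave 0 calls. On chromosome 1, 4 of 5 genes from H3C13 to H2AC21 rose, with a median of 0.72, while H2AC25 and H2BC26 were not called. Within the largest group, neighbours differed: H3C1, H4C1 and H4C2 rose, while H3C2, which follows them, had a change near 0. Of 25 measured genes near the clusters that are not histone genes, 6 rose (24%) and 3 fell (12%), against 9.79% and 11.1% of all genes. The median change of these 25 genes was -0.08. Among them TRIM38, a ubiquitin ligase gene, rose by 1.14 ± 0.08 (adjusted p 3.99e-07), and the butyrophilin gene BTN2A1 by 0.99 ± 0.10 (adjusted p 7.53e-06). BTN3A1, of the same family, rose by 0.56 and CARMIL1 fell by 0.50.

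**Figure D4:**
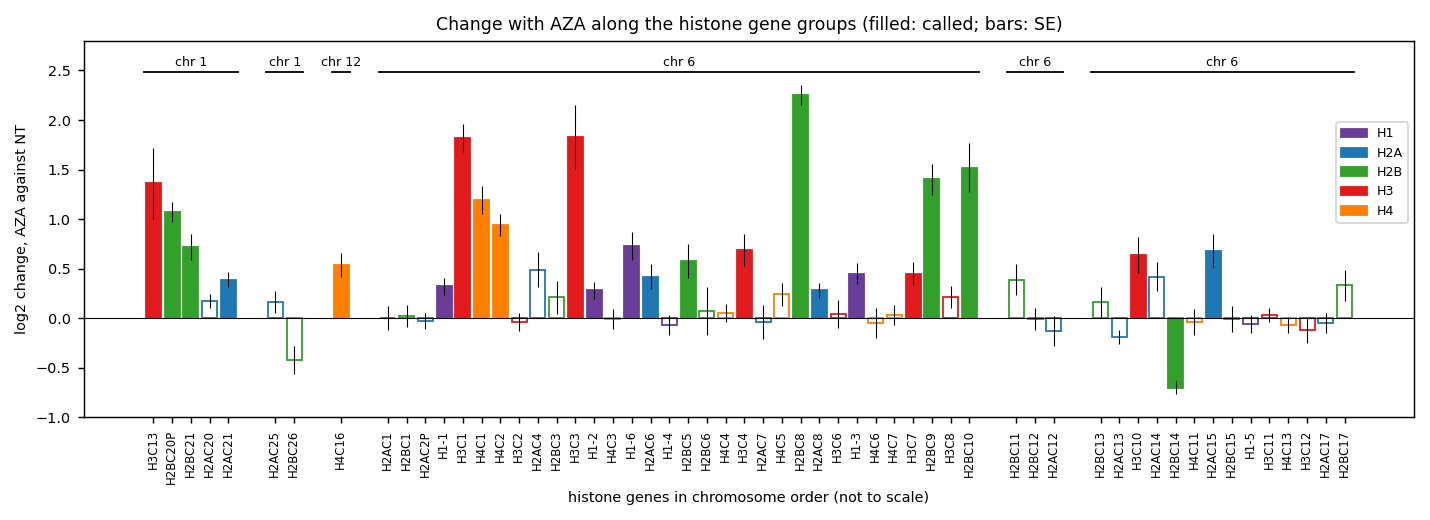
The log2 change under AZA against untreated cells for the 57 histone genes in chromosome order, not to scale, with colours for histone type, filled bars for called genes and error bars of 1 standard error. Tall filled bars lie in the group from H2AC1 to H2BC10 on chromosome 6 and from H3C13 to H2AC21 on chromosome 1, and H2BC14 is the filled bar below 0.

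Promoter letters were set beside the calls as a description. Among 21 genes that rose and had a sequence, CCAAT was in 90.5%, TATAAA in 66.7% and ATTTGCAT in 38.1%. For 28 genes that were not called, the shares were 85.7%, 71.4% and 42.9%. The window held a median of 9 CG dinucleotides in the genes that rose, 11.5 in those not called, 10.5 in all 50 and 14 in all promoters. This search window, which is longer than the sequences printed above, held 7 CG for H2BC8, which rose, and 9 for H2BC14, which fell. Both H2B promoters carry the octamer at the same distance.

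APR-246 alone gave 0 calls among the 57 histone genes, where 0.00356% of all genes were called in either direction, which is 1 gene. Changes ran from -0.18 to 0.34, with a median of -0.02 against 0.00 for all genes. At an unadjusted p under 0.05 there were 2 histone genes (3.51%) and 3.89% of all genes. These were H2BC8, with a change of 0.22 ± 0.10, and H2BC14, with -0.17 ± 0.07. Both had an adjusted p of 1, and limma with a variance trend and robust fitting also called 0 histone genes.

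With both drugs, 22 histone genes rose and 2 fell against untreated cells, where 10.4% of all genes were called higher and 11.9% lower. The median change was 0.23. This comparison and that of AZA share the NT arrays, so the values are given side by side. H2BC8 rose by 2.30 ± 0.10 with both drugs and by 2.25 ± 0.10 with AZA. For H3C1 these changes were 1.92 and 1.82, for H4C1 1.33 and 1.19, for H2BC14 -0.80 and -0.70, and for H1-6 0.88 and 0.73. By type, 2 H1 genes, 4 H2A, 5 H2B, 7 H3 and 4 H4 genes rose, and the genes that fell were H2BC14 and H2AC13. Called in both comparisons were 18 rising genes and H2BC14. H1-1, H1-3, H2AC8, H2AC15 and H2BC5 were called with AZA and not with both drugs, and H2AC4, H2AC14, H3C8 and H4C5 the other way round, but none of these genes passed the direct test between the drug groups. H2AC13 changed by -0.23 ± 0.07 (adjusted p 0.0322), which was 1.17-fold lower. With 1 array left out, between 14 and 17 genes rose, 14 of them without NT replicate 2. The call of H2AC13 was lost without NT replicate 2, NT replicate 3, APR-AZA replicate 2 or APR-AZA replicate 3, when 1 gene fell. H2BC10 rose by 0.85 ± 0.25 (adjusted p 0.0268), from arrays at 5.31, 4.32 and 5.36. Its call was lost without NT replicate 1, NT replicate 2, APR-AZA replicate 1 or APR-AZA replicate 3.

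Set directly against AZA, the combination gave 0 histone calls, and 0% of all genes were called. Changes ran from -0.67 for H2BC10 to 0.35 for H4C2, and the smallest adjusted p was 0.986. At an unadjusted p under 0.05 there were 3 histone genes (5.26%) and 1319 of all genes (4.69%), which are near-equal shares. The histone genes were H2BC10, H4C2 (0.35 ± 0.11) and H2AC1 (0.30 ± 0.12). H4C2 read 7.15, 7.16 and 7.11 with AZA and 7.39, 7.60 and 7.48 with both drugs, which did not overlap. The fit with a variance trend and robust fitting also gave 0. Against APR, 18 histone genes rose and 1 fell (H2BC14), with 9.45% of all genes higher and 11.2% lower, and the median histone change was 0.28. Non-additivity, the combined change less the sum of the single changes, gave 0 calls for histone genes and 0% for all genes. It ran from -0.73 for H2BC10 to 0.41 for H2AC7. At an unadjusted p under 0.05, H4C4 was the 1 histone gene (1.75%), with 990 of all genes (3.52%). The fit with trend and robust fitting again gave 0 calls.

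Of 22 measured genes that make and process histone mRNA, 2 rose with AZA (9.09%) and 5 fell (22.7%). Of all genes, 9.79% were called higher and 11.1% lower. However, 20 of the 22 lay above the upper quartile of all genes in untreated cells. In the brightest band by the mean over all arrays, 22.1% of all genes were called higher and 27.2% lower. The median change of the 22 genes was 0.00, with members called in both directions. SLBP, whose protein binds the stem-loop, fell from 10.60 ± 0.01 to 10.27 ± 0.05 (SD), a change of -0.33 ± 0.07 (adjusted p 0.00452). The cap-binding genes NCBP1 and NCBP2 fell by 0.39 and 0.33, CSTF2, a cleavage-factor gene, by 0.48, and CCNE1 (cyclin E1) by 0.37. CCNE2 (cyclin E2) rose by 0.91 ± 0.08 (adjusted p 3.98e-06), and TUT7, which adds uridines to RNA ends, by 0.47. NPAT had a change of 0.19 ± 0.12 (adjusted p 0.336), and the NPAT partner CASP8AP2 of 0.11 ± 0.10 (adjusted p 0.536).

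Replacement and variant histones, which are made outside S phase as well, gave 3 higher and 1 lower of 18 measured, with a median of -0.01. These shares were 16.7% and 5.56%, against 9.79% and 11.1% of all genes. H3-7, H1-10 and H2AJ rose by 0.71, 0.59 and 0.48, and H2AZ2 fell by 0.40. H2AX, a variant that marks DNA breaks when phosphorylated, had a change of 0.00 ± 0.09. Among 26 histone chaperone and import genes, 4 rose (15.4%) and 8 fell (30.8%), with a median of -0.11. Of these 26, 23 lay above the upper quartile of all genes in untreated cells. In the brightest band by the mean over all arrays, 22.1% of all genes were called higher and 27.2% lower. The importin gene IPO4 fell by 1.03 ± 0.11 (adjusted p 1.89e-05) and CABIN1 by 0.50, while ASF1B, a chaperone of H3 and H4, rose by 0.49. Of 31 S phase and DNA replication genes, 1 rose (3.23%) and 14 fell (45.2%), against 9.79% and 11.1% of all genes. Their median was -0.22, against 0.21 for the histone genes. Of these 31, 29 also lay above the upper quartile of all genes in untreated cells, where the brightest-band shares were 22.1% and 27.2%. UNG, a uracil glycosylase gene, fell by 1.04, and GINS1 and GINS2, subunits of the replicative helicase complex, by 0.76 each. PCNA fell by 0.34 and CCNA2 (cyclin A2) by 0.28. RRM2, a ribonucleotide reductase subunit, had a change of 0.00 ± 0.07, and CDT1, a replication licensing factor, rose by 0.44. The part of cell-cycle phase in the histone values was not tested.

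**Figure D5:**
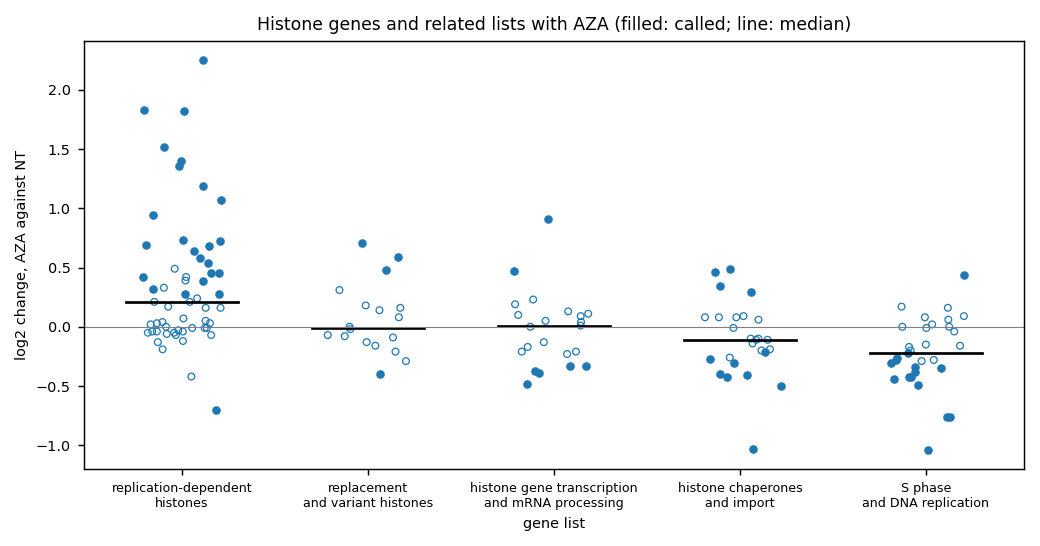
The log2 change under AZA against untreated cells for each measured gene of the histone genes and of related lists, with a line at each list's median. The histone genes lie mostly above 0 (median 0.21), and the S phase and DNA replication genes lie mostly below it (median -0.22).

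Markers of the line itself moved with AZA as well: of 16 myeloid genes 2 rose (12.5%) and 9 fell (56.2%), with a median of -0.51. Of all genes, 9.79% were called higher and 11.1% lower. PRTN3 (proteinase 3) fell by 2.52, AZU1, another granule protein gene, by 2.10 and CD38, a surface enzyme, by 2.0. Among 17 markers of other cell types, 1 rose (5.88%) and 0 fell. That gene was NKG7, a cytotoxic granule gene, which rose by 0.74 ± 0.13 (adjusted p 0.00101), from 6.32 to 7.06. The part of these changes in the histone values was not tested.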

How the data were processed

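Per the labels, 250 ng of total RNA per sample was labelled over the whole transcript and hybridised to expression arrays. The deposited values are log2 signals, 1 per gene and array, and RMA and Partek are named, without versions, per the submitters' processing notes. For the probe-set definition and the genome build, the sources used here give nothing. Of 29413 deposited rows, 28129 carried 1 symbol and 1284 none. For 4 repeated symbols 1 row was kept, leaving 28125 genes.

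All genes were fitted with limma 3.58.1 in R 4.3.3 over the 12 arrays with 1 mean per group, 8 residual degrees of freedom and Benjamini-Hochberg adjustment over all genes, a threshold of 0.05. No filter was applied. The fit was tested on simulated data. Figures and motif counts used Python 3.11.15. Replicate numbers did not pair the arrays: same-numbered arrays of different groups correlated between -0.253 and 0.142 in their deviations. Members and gene lists were chosen with earlier results of these data known. Named genes were, per type, the 2 largest increases and 1 decrease among calls with AZA, and the brightest and dimmest by mean signal. From each list they were the 3 largest called changes, with SLBP, NPAT and CASP8AP2 always. Others were chosen after their values were seen. Alternatives were the filter on dim genes, centring, repeated quantile normalization, a variance trend with robust fitting, compared groups alone, a replicate block, all rows, and leaving out each array. The number of arrays limits the precision. 155 of 175 list entries were measured.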

Additional observations from a re-analysis of the deposited data

How the results depend on the processing

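Among the increases, the decrease and the brightest genes that the naming rule chose, no called change turned sign under an alternative. Of those not called, H3C11 with AZA went from 0.03 to -0.01 with quantile normalization repeated and to -0.02 without AZA replicate 2, and H4C3 from -0.01 to 0.02 with quantile normalization repeated and to at most 0.06 with 1 array left out. H4C3 with both drugs went from -0.05 to at most 0.02 with 1 array left out. With AZA, 1 histone gene was lower, and 2 were with the dimmest 30% of genes left out or quantile normalization repeated (H2BC26 added), with a variance trend and robust fitting (H2AC13 added) and with the compared groups alone. Leaving out 1 array gave 1 to 2. The count of higher genes, 23, was 21 to 24 under the other settings and 16 to 24 with 1 array left out. With both drugs against NT, 2 genes were lower, but 1 with quantile normalization repeated, with the compared groups alone and with the replicate block, and the 22 higher genes were 18 (median centring) to 23, with 20 under the replicate block. Leaving out 1 array gave 1 to 2 lower and 14 to 17 higher. Against APR, the 1 lower gene became 3 with the variance trend and robust fitting (H2AC13, H2BC14 and H4C4). With the replicate block, no other count moved by over 1.5 times. In 0 of 12 cases did an array correlate best with its own number. H2AC6 with both drugs missed the threshold after median centring (adjusted p 0.0528), H2BC10 with the compared groups alone (0.0519), and H1-3 passed it in that fit (0.0499). The causes were not tested. Of the 57 genes, 9 were among the dimmest 30% of all genes. Shared probes and 3 arrays per group limit what single genes can show.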
